A study of Mus musculus with 134 samples.

Results

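The expression libraries compared here are those of SET-seq, a protocol that takes chromatin and cytoplasmic RNA from the same cells. Their titles do or do not name an antibody for the chromatin. They are 18 of the 54 bulk expression libraries of the series. 12 libraries carry H3K4me3 or H3K27me3 in their titles, and 6 carry no antibody name. Whether the nuclei of these 6 were incubated with an antibody or IgG is not stated. They are called libraries without antibody below, for the missing name alone. Each kind was made from 100, 1000 and 10000 cells, with 2 libraries per antibody and cell number. All 18 came from untreated ES-E14TG2a (E14) cells, a mouse embryonic stem cell (mESC) line of the 129/Ola strain, sampled at day1 and grown with serum and LIF on gelatin. For the expression libraries the labels name no antibody beside the title, since the RNA itself met none. In the study's methods the nuclei were bound to concanavalin A beads and the supernatant with the cytoplasmic RNA was taken off. Only the nuclei were then incubated with antibody. The cells are 1 line, the labels do not say that the replicates came from separate cultures, and the p-values then measure the spread between these libraries, which may be technical. The labels give no date or batch, so an antibody in the assay and a separate preparation cannot be told apart.

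H3K4me3 marks active promoters and H3K27me3, written by Polycomb repressive complex 2 (PRC2), marks repressed ones, and in mESCs many developmental genes carry both. In SET-seq these marks are read in the nuclei by CUT&Tag, in which a fusion of protein A and the Tn5 transposase cuts next to the antibody. The RNA is reverse transcribed from its poly-A tail, and Tn5 cuts the mRNA/cDNA hybrid directly. How well a molecule is seen therefore depends on its tail, on the reverse transcription, on the cutting by Tn5 and on the PCR that follows.

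The deposited values are counts of read pairs per gene for 25209 genes of mm9. Total counts ranged from 243741 to 9023045 in the libraries without antibody and from 1440010 to 8602574 with one. The smallest of all was replicate 2 of 1000 cells without antibody. The next smallest without antibody was replicate 2 of 100 cells, with 1487081, and these are called the pair of small libraries below, although replicate 2 of 10000 cells with H3K4me3 was also small, with 1440010. With an antibody the totals fell with the cell number, from a median of 7672004 at 100 cells to 1920200.5 at 10000 cells. Of 6 markers of mESCs, none was at 0 in all libraries, and their summed level ranged from 2982 to 4694 CPM (counts scaled to the size of the library) without antibody and from 4171 to 5348 with one. Summed markers of primitive endoderm reached at most 9.62 CPM and those of fibroblasts at most 12.99 CPM in any library. The label of mESCs therefore holds by these markers in both groups. The first principal component, with 21.9% of the variance, held all 6 libraries without antibody on one side, at -7.55 and below. The antibody libraries were at -4.38 and above, and there it also followed the cell number. They were at 45.4 to 55.2 at 100 cells, at 9.33 to 18.2 at 1000 and at -4.38 to 5.76 at 10000. The library without antibody nearest to the others was the smallest one. The second, with 21.2%, separated the smallest library, at 140.8, from all others.

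Expression with an antibody was compared with expression without one by edgeR's quasi-likelihood test, with the cell number as a factor. Differences are given as log2 fold changes of antibody against none, and p-values were adjusted by the Benjamini-Hochberg method over all genes tested. An adjusted p below 0.05 was found for 4828 of the 11709 genes tested (41.2%). Expression of 2404 genes (20.5%) was higher with an antibody and that of 2424 (20.7%) was lower. The median log2 fold change of all genes was -0.018, and the median size among the genes called was 0.73. Changes above 1 on the log2 scale were found in 787 of the higher and 482 of the lower genes. The direction was the same at 100, 1000 and 10000 cells for 4640 of the called genes (96.1%). These genes were called on the same libraries, so this share was in part fixed by the call and is a description. Without the pair of small libraries, 5104 genes were called, and 4429 of the 4828 were among them in the same direction. Since the libraries hold RNA of many cells, fewer cells of a type and less RNA per cell cannot be told apart.

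**Figure D1:**
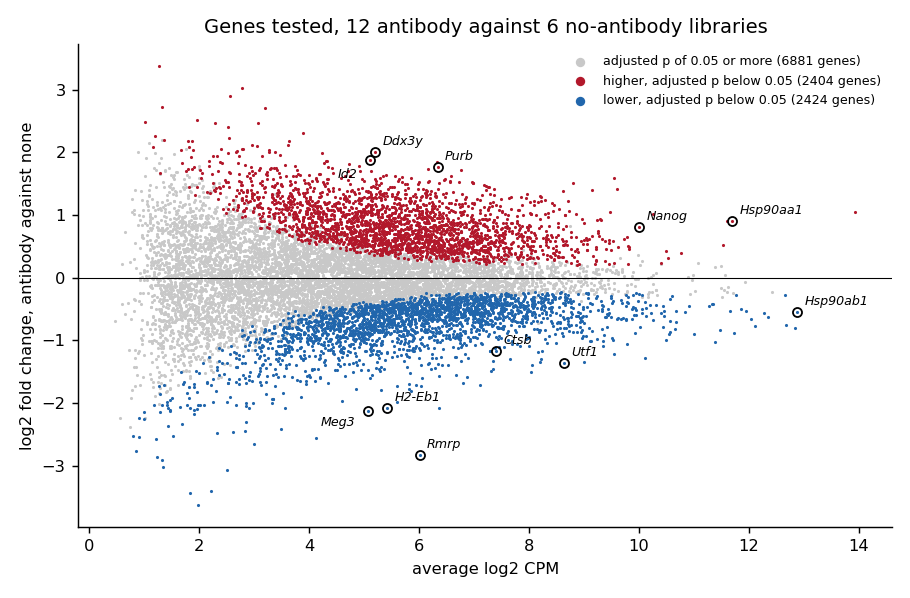
Log2 fold change of antibody against none for each gene tested, against its average log2 CPM, with 2404 genes higher (red) and 2424 lower (blue) at an adjusted p below 0.05. The ringed genes are described in the text, with Rmrp the lowest of them at -2.84 and Ddx3y the highest at 2.00.

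Both antibodies were then compared with the same 6 libraries without antibody, so these comparisons are not independent of each other. For H3K4me3, 4051 genes (34.6%) were called, 2097 higher (17.9%) and 1954 lower (16.7%). For H3K27me3, 4002 genes (34.2%) were called, 2018 higher (17.2%) and 1984 lower (16.9%). Between H3K27me3 and H3K4me3 no gene was called by edgeR, which is 0% of 11709, and none by DESeq2. An unadjusted p below 0.05 was found for 219 genes with edgeR and 337 with DESeq2. Both are fewer than the share of 0.05 that chance alone gives, so the tests may be too cautious for this pair. The simulation that follows drew on the spread fitted to these libraries and cannot show it. The median size of the difference was 0.13 between the antibodies and 0.46 between antibody and none, on the log2 scale. In simulated data of the same size, edgeR recovered 54% of genes changed 2-fold and 88% of those changed 4-fold between the antibodies, so small differences between them could have been missed.

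The largest rises, by a rule that also asked for the same direction at each cell number and a call without the small libraries, were those of Ddx3y and Id2. Ddx3y, a Y-linked RNA helicase on chromosome Y from 597158 to 623056, had from 4.95 to 20.9 CPM without antibody (median 13.8) and from 28.3 to 71.3 with one (median 45.8). All 12 antibody libraries lay above all 6 others. Its log2 fold change was 2.00 (SE 0.19, adjusted p = 1.44e-08), where SE is the standard error, with 2.03 for H3K4me3 and 1.97 for H3K27me3. The other Y-linked genes tested, Uty and Eif2s3y, rose by 1.31 and 0.51 and their groups overlapped; this group of genes was chosen after its values were seen. In a fit with an offset for the GC content and length of the genes, described below, Ddx3y rose by 0.74, and Uty and Eif2s3y had 0.07 and -0.31 and were not called. Id2, an inhibitor of basic helix-loop-helix factors on chromosome 12 from 25778664 to 25780957, had from 0 to 18.1 CPM without antibody (median 9.49) and from 26.6 to 66.4 with one (median 44.4). The groups did not overlap, and the value of 0 was that of the smallest library. It rose by 1.88 (SE 0.23, adjusted p = 5.33e-07), or by 1.71 without the small libraries.

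Purb, which binds purine-rich single-stranded DNA, rose by 1.77, from a median of 30.4 CPM without antibody to 98.5 with one. Gap43, a growth-associated protein of neurons, rose by 1.70, from 13.4 to 41.1 CPM. The libraries of both genes did not overlap between the groups. The histone H2A gene H2ac10 rose by 1.85, from 26.5 to 109 CPM, but it has near-identical copies among which reads could not be placed. Ska2, a kinetochore protein, rose by 1.71 and the uncharacterized B230219D22Rik by 1.73. The zinc finger gene Zfp984, the RNA-binding Elavl2 and the prefoldin subunit Vbp1 rose by 1.62, 1.63 and 1.63. Elavl2 and Vbp1 overlapped between the groups, and the 10000 cell libraries without antibody were the lowest of all for both, at 3.56 and 11.9 CPM for Elavl2 and 1.58 and 20.3 CPM for Vbp1. With the offset for GC content and length the rises of these genes were 2.35 for H2ac10, 2.00 for Gap43, 1.35 for Id2, 1.04 for Purb, 0.98 for B230219D22Rik, 0.82 for Ska2, 0.81 for Elavl2, 0.68 for Vbp1 and 0.61 for Zfp984, all of them called. Over all genes, libraries without overlap were found for 432 genes higher (3.69%) and 313 genes lower (2.67%).

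The largest fall was that of Rmrp, an RNA that is not translated, and Rpph1, another such RNA, was also among the 10 largest falls. Rmrp is the RNA subunit of RNase MRP, which cleaves precursor rRNA, and Rpph1 is that of RNase P, which trims the 5′ end of tRNAs. Both are made by RNA polymerase III and have no poly-A tail of their own, while the libraries were primed with oligo-dT. The sequence of Rmrp is shown for this reason, as transcribed from the minus strand of chromosome 4 from 43505657 to 43505931 (mm9), with each run of at least 3 A in capitals. It holds 1 such run, of 3 bases.
Rmrp: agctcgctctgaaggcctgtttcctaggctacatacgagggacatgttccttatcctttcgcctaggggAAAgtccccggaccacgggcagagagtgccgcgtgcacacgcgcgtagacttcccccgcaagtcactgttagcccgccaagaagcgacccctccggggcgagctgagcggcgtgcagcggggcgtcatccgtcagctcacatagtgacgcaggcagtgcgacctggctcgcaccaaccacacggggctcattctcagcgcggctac
Without antibody Rmrp had 29.3 and 25.6 CPM at 100 cells, 56.3 and 86.6 at 1000 cells and 427 and 305 at 10000 cells. With an antibody it had at most 6.49 CPM at 100 cells, 15.6 at 1000 cells and 61.5 at 10000 cells. Within each cell number the groups did not overlap, and in both the level was highest at 10000 cells. Its log2 fold change was -2.84 (SE 0.21, adjusted p = 3.43e-10). Rpph1 followed the same order, with a median of 49.9 CPM without antibody and 10.3 with one, and a log2 fold change of -1.79 (SE 0.25, adjusted p = 2.96e-06). Of 11 cytoplasmic and small noncoding RNAs tested, 4 fell, among them Snhg8 with -1.10, and 1 rose, Snhg1 with 0.88. Over all genes 20.7% were lower and 20.5% higher.

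Meg3, the maternally expressed long noncoding RNA of the imprinted Dlk1-Dio3 locus, had from 34.9 to 122 CPM without antibody (median 64.4) and from 7.45 to 27.6 with one (median 15.7). The groups did not overlap, and its log2 fold change was -2.13 (SE 0.23, adjusted p = 9.79e-08). H2-Eb1, the beta chain of an MHC class II molecule, had from 57.7 to 104 CPM without antibody (median 90.5) and from 8.71 to 31.5 with one (median 20.2). It fell by 2.09, again without overlap. Ly6a, the surface protein Sca-1, fell by 2.07. Its levels without antibody were 551 and 289 CPM in the small libraries of 100 and 1000 cells and 59.4 to 90.9 in the other 4, against 25.0 to 55.3 with an antibody, and without the small libraries it fell by 1.02. Cdx1, a homeobox gene induced by Wnt, fell by 1.99 and had its highest levels in the same pair of libraries, 164 and 168 CPM. Bmp4, the ligand of the BMP pathway, fell by 1.80, from a median of 98.2 CPM to 29.8. Etv4 and Spry4, an ETS factor and a feedback inhibitor downstream of ERK, fell by 1.78 and 1.73. Ctsa, the lysosomal cathepsin A, fell by 1.73, from a median of 119 CPM to 34.2, and 22.6% of its exon bases are shared with Neurl2 and Pltp, where reads were not counted.

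**Figure D2:**
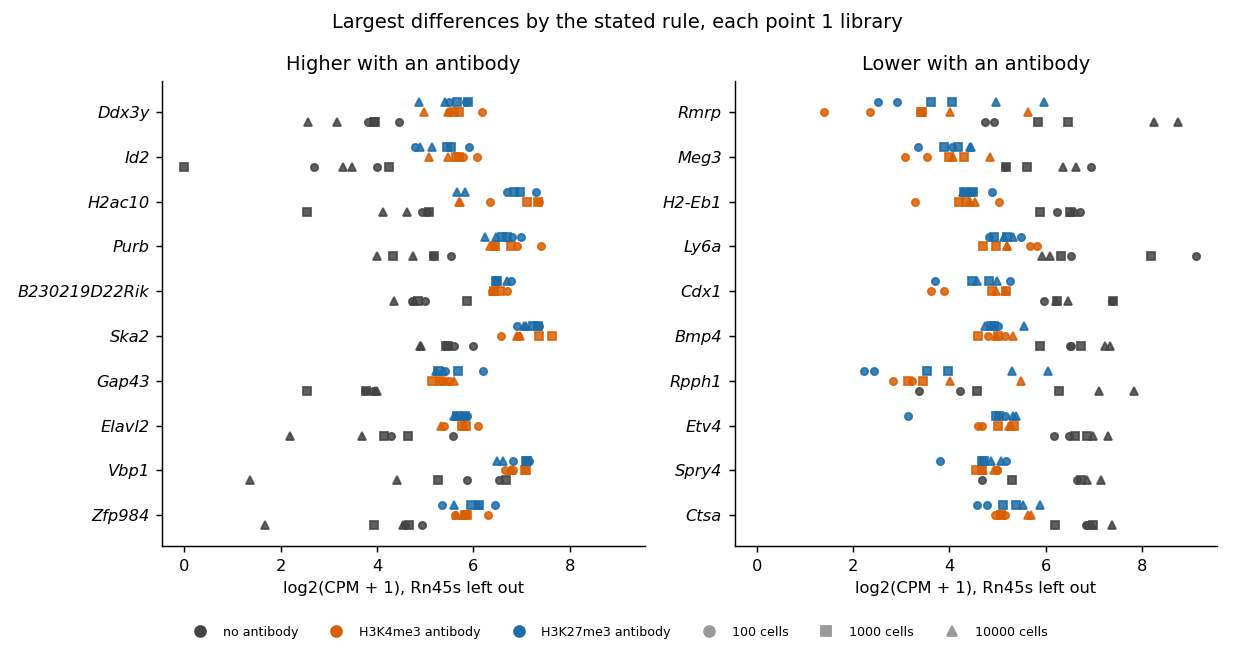
Log2(CPM + 1) of the 10 genes with the largest rises (left) and the 10 with the largest falls (right), 1 point per library, without antibody in grey, with H3K4me3 in orange and with H3K27me3 in blue. The median of the 12 antibody libraries is 45.8 CPM for Ddx3y against 13.8 without antibody, and 10.5 for Rmrp against 71.4.

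The size and direction of the difference went with the base composition of the genes. Across the 11709 genes tested, the rank correlation of the log2 fold change with the GC content of the exons was -0.592, and that with the exon length was 0.282. These are correlations across genes of the same libraries, which are not independent replicates. The genes were divided into 10 equal groups by GC content. In the group with the lowest GC (median 40.3%) the median log2 fold change was 0.86, with 65.8% of genes higher and 0.769% lower. In the group with the highest GC (median 60.3%) it was -0.44, with 1.96% of genes higher and 37.8% lower. The genes that rose had a median GC content of 44.0% and a median exon length of 4138 bases, and those that fell had 55.2% and 2262.5 bases. For H3K4me3 and H3K27me3 the correlation with GC was -0.594 and -0.566, and for the difference between them 0.101. The mean GC content of a library, weighted by counts, was 50.7% to 52.8% without antibody and 50.3% to 50.8% with one. Its part in each gene's difference was not tested, but the fit was repeated with an offset for GC content and exon length in each library. It called 2828 genes (24.2%), 1448 higher (12.4%) and 1380 lower (11.8%), of which 1935 were among the 4828 in the same direction. Of the 4828 genes, 611 had the opposite sign with the offset and 37 of these were called in the opposite direction.

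**Figure D3:**
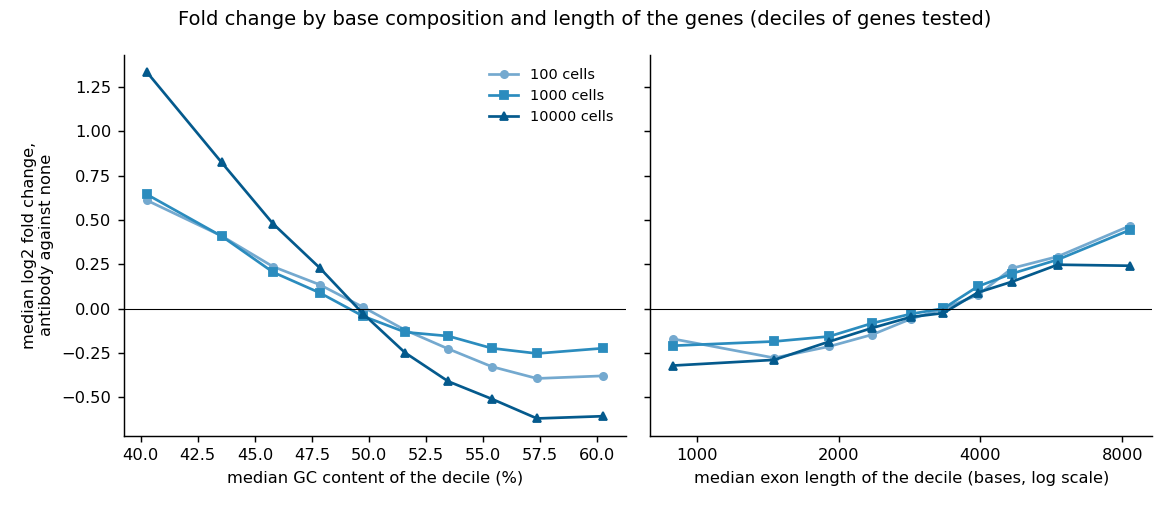
Median log2 fold change of antibody against none for 10 equal groups of genes by GC content of the exons (left, percent) and by exon length (right, bases, log scale), 1 line per cell number. The lines fall from 0.61, 0.64 and 1.33 at a GC content of 40.3% to -0.38, -0.22 and -0.61 at 60.3% for 100, 1000 and 10000 cells.

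Named genes did not all follow this order. H2ac10, of 61.5% GC, rose by 1.85, and Phlda2, of 55.6% GC, rose by 0.81. A pair of close relatives, shown as 1 example, differed both in GC content and in direction. Hsp90aa1 and Hsp90ab1 encode cytosolic Hsp90 proteins that fold kinases and receptors. The pair of sequences below are the coding bases 274 to 444 of Hsp90aa1 and 259 to 429 of Hsp90ab1 (GENCODE transcripts, NCBIM37, the build of mm9), which encode the same 57 amino acids and differ in 28 of 171 bases, shown in capitals. Of these bases, 13 are G or C in Hsp90aa1 and 19 in Hsp90ab1.
Hsp90aa1: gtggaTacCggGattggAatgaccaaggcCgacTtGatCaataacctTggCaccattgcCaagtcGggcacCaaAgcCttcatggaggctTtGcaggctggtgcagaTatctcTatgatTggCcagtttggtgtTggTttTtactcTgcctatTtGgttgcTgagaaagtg
Hsp90ab1: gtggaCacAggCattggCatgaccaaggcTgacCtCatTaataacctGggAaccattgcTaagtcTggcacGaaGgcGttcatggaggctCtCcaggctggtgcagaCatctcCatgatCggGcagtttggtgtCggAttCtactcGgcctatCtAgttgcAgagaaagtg
Over the whole coding sequence the GC content at the third position of the codons was 50.7% in Hsp90aa1 and 68.6% in Hsp90ab1. Hsp90aa1 had from 767 to 3310 CPM without antibody (median 2533) and from 2948 to 4916 with one (median 3679). The groups overlapped over all cell numbers but not within any of them. It rose by 0.91 (SE 0.14, adjusted p = 7.61e-06), or 0.47 with the GC and length offset. Hsp90ab1, more abundant, had from 8294 to 10448 CPM without antibody (median 9718) and from 5575 to 7533 with one (median 6615). It had a log2 fold change of -0.55 (SE 0.07, adjusted p = 1.62e-06) with no overlap of the groups, and of -0.36 with the offset. Of 12 heat shock genes, 6 rose and 4 fell, against 20.5% and 20.7% of all genes. Among them were Hspa4 with 0.46 and the small heat shock protein Hspb1 with -0.79. With the offset 6 rose and 3 fell, against 12.4% and 11.8% of all genes, and Hspa4 and Hspb1 had 0.19 and -0.29.

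The list with the largest share of lower genes was that of the lysosome, the organelle that degrades proteins, sugars and lipids. This list of 28 genes was written after values were seen, so its counts are a description. Of 27 tested, 21 fell and none rose, with a median log2 fold change of -0.98, against 20.7% of all genes lower and a median of -0.018. Their summed level was 3286 to 4813 CPM without antibody and 1915 to 2729 with one, so that the groups did not overlap. The protease genes Ctsb, Ctsl and Ctsd fell by 1.18, 1.45 and 0.98. Ctsb had from 233 to 314 CPM without antibody and at most 161 with one (median 106). The glycosidases Hexa and Gaa fell by 1.28 and 1.56, the cholesterol carrier Npc2 by 1.33 and the granulin precursor Grn by 1.39. Grn had from 241 to 610 CPM without antibody and from 129 to 224 with one, without overlap. The membrane protein Lamp1 fell by 0.60, while its relative Lamp2, with a GC content of 38.3% against 51.6% in Lamp1, had a log2 fold change of 0.40 (adjusted p = 0.0923, edgeR) that turned to -0.65 with the offset (adjusted p = 0.00055). Npc1, which works beside Npc2, had one of -0.12 (adjusted p = 0.668). With the GC and length offset 20 of the 27 genes were lower, with a median of -0.77, against 11.8% of all genes.

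**Figure D4:**
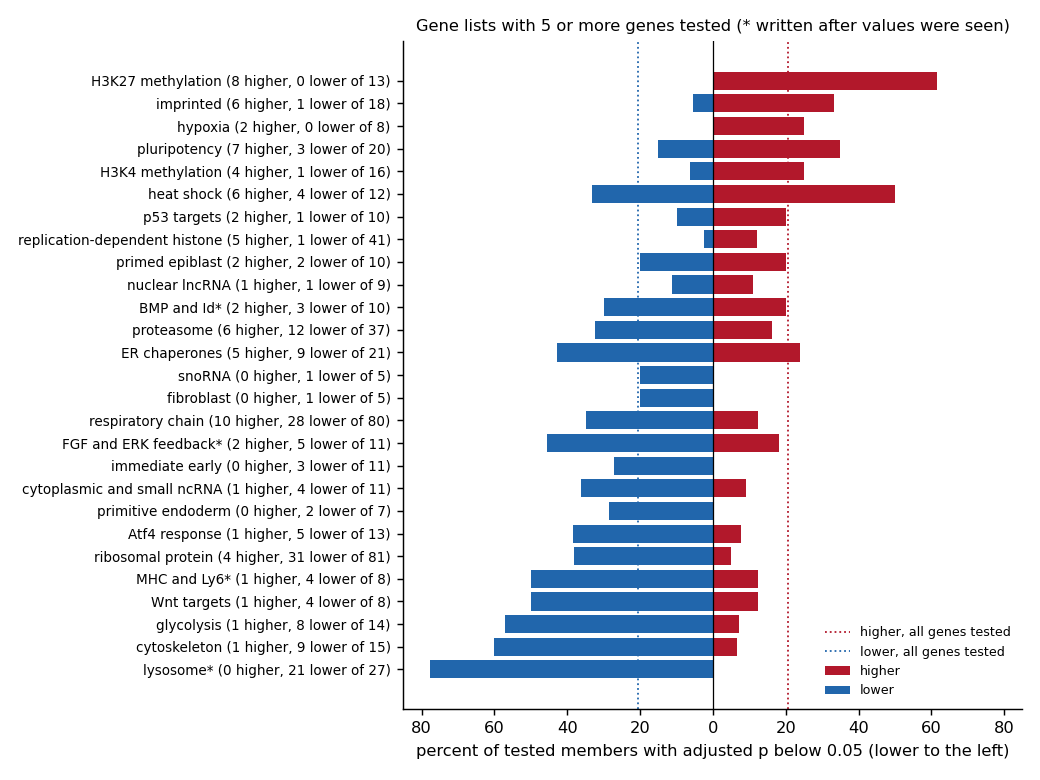
Percent of the tested genes of each list with 5 or more genes tested that were higher (red, right) or lower (blue, left) with an antibody, at an adjusted p below 0.05, with dotted lines at the 20.5% and 20.7% of all genes. Lists with an asterisk were written after values were seen. Among the lists drawn, the longest bar to the right is that of H3K27 methylation, with 8 of 13 genes higher, and the longest to the left that of the lysosome, with 21 of 27 lower.

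Genes of pluripotency moved both ways. Of 20 tested, 7 rose and 3 fell, with a median of 0.20, against 20.5% of all genes higher and 20.7% lower. With the offset 10 rose and 1 fell, against 12.4% and 11.8%. Sox2, a core transcription factor, had from 50.3 to 117 CPM without antibody (median 92.6) and from 111 to 234 with one (median 144). The ranges met only at their ends, and it rose by 0.93 (SE 0.11, adjusted p = 6e-07). Fgf4, the ligand that primes mESCs for lineage entry, rose by 0.61 without overlap, from at most 209 CPM to at least 216. Nanog had from 285 to 1155 CPM without antibody and from 995 to 1289 with one, and rose by 0.81 (SE 0.17, adjusted p = 0.000512). Pou5f1, which encodes Oct4, had from 170 to 280 CPM without antibody and from 121 to 221 with one, and its log2 fold change of -0.27 did not pass the test (adjusted p = 0.0863, edgeR). Utf1, a chromatin-bound factor of undifferentiated cells, fell by 1.37, from a median of 680 CPM to 285, with no overlap, and by 0.86 with the offset. Nr0b1 had a log2 fold change of -0.44 and one of 0.01 with the offset. Of 10 genes of the primed epiblast a share near that of all genes was called: 2 rose, Dnmt3a by 0.78 and Otx2 by 1.74, and 2 fell, Dnmt3b by 1.06 and Nodal by 0.30. Otx2 had 28 counts in all libraries without antibody together, so its level is poorly measured. With the offset neither Otx2 (1.52, adjusted p = 0.0761) nor Nodal (0.17) was called.

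Of 13 genes that write, erase or bind H3K27 methylation, 8 rose and none fell, with a median of 0.55, against 20.5% of all genes higher. Suz12, a core subunit of PRC2, had from 44.9 to 236 CPM without antibody (median 160) and from 222 to 431 with one (median 312). The lowest values without antibody were those of 10000 cells, at 44.9 and 85.1. It rose by 1.21 (SE 0.16, adjusted p = 1.05e-06), with 1.19 for H3K4me3 and 1.22 for H3K27me3. The H3K27 demethylase Kdm6a rose by 1.11 without overlap, from at most 31.2 CPM to at least 43.7. Ezh2, the methyltransferase, rose by 0.69. With the offset 5 of the 13 genes rose, against 12.4% of all genes, Suz12 by 0.52 and Ezh2 by 0.38, and Kdm6a had 0.37 (adjusted p = 0.0611). The median GC content of this list was 46.1%, against 50.7% for all genes. Of 16 genes of H3K4 methylation, 4 rose and 1 fell, a share near the background on the higher side. Kmt2c and the demethylase Kdm5a rose by 1.12 and 0.84, and the shared subunit Wdr5 fell by 0.61. With the offset Kmt2c and Wdr5 had 0.73 and -0.39, and Kdm5a, with 0.17, was no longer called (adjusted p = 0.415). Of 18 imprinted genes, 6 rose, among them Impact by 1.13 and Phlda2 by 0.81, and 1 fell, Meg3. The counts were equal with the offset, where Impact had 0.49 and Phlda2 1.30.

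In the lists of cell structure and metabolism a larger share was lower than the 20.7% of all genes. Of 15 cytoskeletal genes, 9 fell and 1 rose. Tubb5, a beta-tubulin, had from 4113 to 6122 CPM without antibody and from 2346 to 3024 with one, without overlap, and fell by 0.89 (SE 0.08, adjusted p = 1.44e-08). Tuba1c fell by 1.30, and Tmsb4x, which binds actin monomers, rose by 0.80. Of 14 genes of glycolysis, 8 fell and 1 rose. The glucose transporters Slc2a1 and Slc2a3 fell by 1.17 and 0.84, both without overlap, and Hk2, which phosphorylates glucose, rose by 0.50. Of 21 chaperones and translocation factors of the endoplasmic reticulum, 9 fell and 5 rose. The disulfide isomerase Pdia6 fell by 1.11 and Rpn2 of the oligosaccharyltransferase by 1.07. Ssr3 and Ssr1, subunits of the translocon-associated complex, rose by 0.66 and 0.49, but had -0.05 and -0.06 with the offset. With the offset 5 cytoskeletal genes were lower and 3 higher, 4 glycolysis genes lower and 3 higher, and 8 genes of the endoplasmic reticulum lower and 2 higher. Over all genes the offset left 11.8% lower and 12.4% higher.

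Of 81 ribosomal protein genes, which have many processed pseudogenes that compete for reads, 31 fell and 4 rose, with a median of -0.33. For this list and those of the respiratory chain and proteasome, the shares of all genes were 20.5% higher and 20.7% lower. They were 12.4% and 11.8% with the offset. Rplp1, of the ribosomal stalk, had from 2756 to 5886 CPM without antibody and from 1678 to 2632 with one. It fell by 1.02 without overlap, Rpl6 fell by 0.94, and Rpl15 and Rpl23 rose by 0.65 and 0.61. The list together took 72802 to 130075 CPM without antibody and 60049 to 88667 with one. With the offset 24 ribosomal protein genes fell and 6 rose, Rplp1 fell by 0.62, and Rpl15, with 0.30, was not called (adjusted p = 0.0523). Of 80 nuclear genes of the respiratory chain, 28 fell, among them Ndufb7 of complex I by 0.90 and Sdhc of complex II by 0.94, and 10 rose, among them Uqcrb of complex III by 0.94. With the offset 12 fell and 13 rose, Ndufb7 had -0.44, Uqcrb, with 0.23, was no longer called (adjusted p = 0.366), and Cox7b of complex IV went from 0.41 to -0.13. Of 37 proteasome subunits, 12 fell and 6 rose. The ATPase subunits moved apart, with Psmc6, of 39.0% GC, rising by 1.15 and Psmc4, of 53.4% GC, falling by 0.64. In the lid Psmd11 rose by 1.16 and Psmd3 fell by 0.69. With the offset 6 subunits fell and 6 rose. Psmc6 then had 0.36, Psmc4 -0.26 and Psmd11 1.25, and Psmd3, with -0.19, was no longer called (adjusted p = 0.0617).

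Several signalling genes moved apart within 1 pathway. Of 8 Wnt targets tested, 4 fell, Cdx1, Sp5, Axin2 and Lef1, and Tcf7 rose, against 20.7% and 20.5% of all genes. Sp5 fell by 1.13, and Axin2 and Lef1, named after their values were seen, had log2 fold changes of -0.52 and -2.08. Tcf7, a transcription factor that binds beta-catenin, rose by 0.64 without overlap, from a median of 35.1 CPM to 54.0. With the offset 2 of the 8 fell, Cdx1 and Lef1, and Tcf7 rose by 0.92, against 11.8% of all genes lower and 12.4% higher. Sp5 had -0.63 (adjusted p = 0.0559) and Axin2 -0.22 (adjusted p = 0.286). The next lists were written after values were seen, and the same shares of all genes stand beside them, without and with the offset. Of 11 genes of FGF and ERK feedback, 5 fell, among them Etv4, Spry4 and Dusp6 (-1.03), and 2 rose, Etv5 by 0.48 and Spred1 by 0.80. Etv5 had 0.58, 0.91 and 0.04 at 100, 1000 and 10000 cells (adjusted p of the interaction with cell number 0.0338). With the offset 3 fell and 1 rose, and neither Spred1 (0.05) nor Dusp6 (-1.01, adjusted p = 0.062) was called. Of 10 genes of BMP and Id, Bmp4, Id3 and Smad7 fell by 1.80, 0.80 and 0.85, Id2 rose, and the receptor Bmpr1a rose by 0.94. Id1 had a log2 fold change of 0.50 (adjusted p = 0.132, edgeR). With the offset Bmpr1a had 0.07 and was not called, Id1 rose by 0.99 (adjusted p = 0.00331), and Id3 and Smad7 had -0.32 and -0.48. Of 8 genes of MHC and Ly6, 4 fell, among them Ly6e by 1.08, and 1 rose, the MHC class I light chain B2m by 0.59. With the offset 3 fell and none rose, Ly6e had -0.65 and B2m -0.04.

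The counts in the lists of stress and growth responses, of other cell types and of noncoding RNAs were small, and shares of 20.5% higher and 20.7% lower are those of all genes (12.4% and 11.8% with the offset). Of 11 immediate early genes, 3 fell and none rose. Egr1, an immediate early transcription factor, had from 4.81 to 14.7 CPM without antibody, from 219 counts in all, and from 0 to 2.20 with one, from 27 counts in all. The groups did not overlap and the fitted log2 fold change was -3.63 (SE 0.60, adjusted p = 2.65e-05). Ier2 fell by 1.00, and Myc, named after its value was seen, by 0.90. With the offset these had -0.47 and -0.54. Of 13 genes of the Atf4 response, 5 fell, among them Aars by 0.58 and Phgdh by 0.69, and 1 rose, Cth by 0.31. With the offset 2 fell, among them Aars by 0.23, and neither Phgdh (-0.17) nor Cth (-0.05) was called. Of 10 p53 targets, Trp53inp1 and Ccng1 rose by 1.32 and 0.75 and Bax fell by 0.74. With the offset Trp53inp1 had 0.33, and neither Ccng1 (0.02, adjusted p = 0.884) nor Bax (-0.23, adjusted p = 0.202) was called. Of 8 hypoxia genes, 2 rose, Bnip3 by 1.29 and Ero1l by 0.75. With the offset neither was called, with 0.72 for Bnip3 (adjusted p = 0.115) and -0.01 for Ero1l, and 1 other gene of the list was lower. In the lists of other cell types few genes were called. Lama1 and Lamc1, 2 of 7 genes of primitive endoderm, fell by 1.08 and 0.52, and Fn1, 1 of 5 of fibroblasts, by 1.01. Of 4 genes of the 2-cell-like state 1 rose, Zscan4d by 1.21, which had 0.74 with the offset (adjusted p = 0.176). Of 9 nuclear long noncoding RNAs, Tug1 rose by 1.16 (0.06 with the offset) and Meg3 fell, and Malat1, which stays in nuclear speckles, had -0.09 (adjusted p = 0.721). With the offset none rose and 3 fell, and Malat1 had -0.76 (adjusted p = 4.47e-05). Of 41 replication-dependent histone genes, 5 rose, among them H2ac8 by 0.57, and 1 fell, H4c14 by 1.44. With the offset 8 rose, H2ac8 by 1.04, and H4c14 had -0.88 (adjusted p = 0.122). Of 5 small nucleolar RNAs tested, 1 fell, Snord52 by 2.13, with 93 counts without antibody and 53 with one.

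Whether the difference was alike at the 3 cell numbers was tested by the interaction of antibody and cell number. Of 12665 genes, 377 (2.98%) were called. In the same fit 2694 genes (21.3%) were called at 100 cells, 1239 higher (9.78%) and 1455 lower (11.5%). At 1000 cells, where 1 library without antibody held 243741 counts, 973 (7.68%) were called, 486 higher (3.84%) and 487 lower (3.85%). At 10000 cells 3783 (29.9%) were called, 2028 higher (16%) and 1755 lower (13.9%). With each cell number fitted alone, 875 of 12093 genes were called at 100 cells. At 1000 cells it was 3693 of 11206, and at 10000 cells 6049 of 11192. Which of 100 and 1000 cells had more genes called thus depended on the fit. The number called for the interaction was not steady. It rose far without some single libraries and fell far without others, as given below. Without replicate 2 of 10000 cells with H3K4me3 it was 125. Nanog is an example of a gene called for the interaction in edgeR (adjusted p of the interaction 0.00865). Its log2 fold change was 0.32 at 100 cells, 0.52 at 1000 and 1.74 at 10000, where the libraries without antibody held 285 and 461 CPM against 1211 to 1289 with one. Hprt, which salvages purines, rose by 0.83 over all cell numbers and by 0.63, 0.47 and 1.43 at the single ones. Actb, the cytoplasmic actin, had 0.05, 0.14 and -0.62, and Pou5f1 had 0.00, 0.09 and -0.80. Hsp90aa1 had 0.63, 0.58 and 1.60. In each of these genes the difference at 10000 cells was the one furthest from 0. The correlation with GC content was -0.393, -0.405 and -0.697 at 100, 1000 and 10000 cells, and the highest GC means, 52.2% and 52.8%, were those of the 10000 cell libraries without antibody. The summed lysosomal genes were lower with an antibody at each cell number. The median log2 fold change of this list was -1.07, -1.13 and -0.85 at 100, 1000 and 10000 cells.

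**Figure D5:**
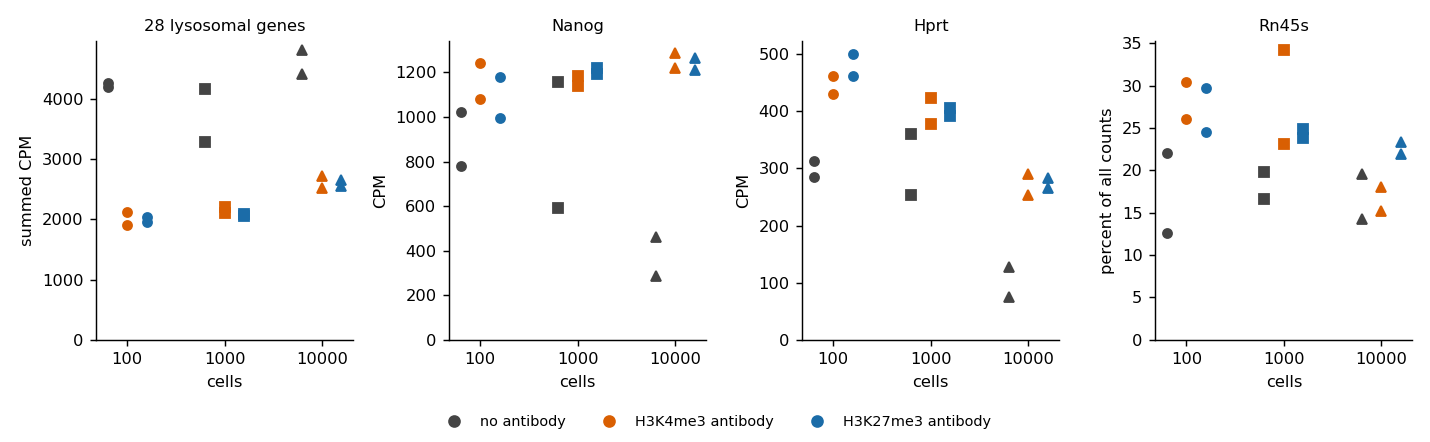
Levels by cell number, 1 point per library: the summed CPM of 28 lysosomal genes, the CPM of Nanog and Hprt, and the percent of all counts on Rn45s, without antibody in grey, with H3K4me3 in orange and with H3K27me3 in blue. Nanog without antibody has its lowest values, 285 and 461 CPM, at 10000 cells, and the lysosomal genes are at 3286 CPM or more in each library without antibody and at 2729 or less in each with one.

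Rn45s, the precursor of the rRNAs, was left out of the tests and compared by its share of all counts. It took 12.6% to 22.05% of the counts without antibody (17.5 ± 3.60, SD, n = 6) and 15.2% to 34.2% with one (24.6 ± 5.19, SD, n = 12). The ranges overlapped, and the mean was higher with an antibody by 7.11 percentage points (p = 0.00356, exact permutation test within cell numbers, two-sided). The smallest p this test can give is 0.000296. The means with and without an antibody were 27.7% and 17.3% at 100 cells and 26.5% and 18.2% at 1000 cells. At 10000 cells they were closest, at 19.6% and 16.9%, and there the ranges overlapped. When all libraries were thinned to the same 195539 counts, 10440.8 ± 540.8 genes (SD, n = 6) were detected without antibody and 10647.8 ± 583.6 (SD, n = 12) with one. The difference of 207 genes was within the spread (p = 0.244, exact permutation test). Replicate 2 of 10000 cells without antibody detected 11510 genes, and without it the difference was 421 genes (p = 0.024, exact permutation test). Without replicate 1 of the same condition it was -7.33 genes, so the value rests on this pair.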

How the data were processed

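Expression was measured in 18 bulk SET-seq libraries. Per the file headers and the study's methods, the authors removed adapters with Trim Galore 0.6.4, aligned reads to mm9 with STAR 2.5.4b and counted read pairs on exons with featureCounts 2.0.0. Multi-mapping reads and reads in more than 1 gene were not counted, and no strand setting was used, so that overlapping and antisense genes cannot be told apart. The deposited values are raw counts without normalization. All rows name genes.

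Groups were taken from the sample titles. Rn45s was removed, libraries were normalized by TMM and genes with low counts were filtered with filterByExpr. The quasi-likelihood test of edgeR 4.0.16 was fitted over all 18 libraries with the cell number as a factor, and p-values were adjusted by Benjamini-Hochberg (threshold 0.05). H3K4me3, H3K27me3 and none were compared in a second fit, and the interaction with cell number in another. CPM are relative to the TMM-scaled totals without Rn45s. GC content and exon length were taken from the exons in the files and the NCBIM37 sequence, and 101 genes with counts had no sequence. For the offset, each library's deviation from the mean log2 CPM (prior count 2) was smoothed over GC content and length by lowess (span 0.3). Shares of Rn45s and genes detected were compared by exact permutation within cell numbers. Total counts ranged from 243741 to 9023045, so genes with few counts are poorly measured in the smallest library.

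Genes named are the 10 largest rises and 10 largest falls with an adjusted p below 0.05 (also without the pair of small libraries), 1 direction at all cell numbers and an average log2 CPM of at least 5. To these come up to 2 genes per direction and list with the smallest p, and 8 control genes with Rn45s. The comparison and the lists were chosen with earlier results of these data known, and 5 lists were written after values were seen. Another list and some genes are not reported here. Alternatives were DESeq2 1.42.0, its size factors, no filter, Rn45s kept, thinning to 195539 counts, the GC and length offset, a replicate block, means per condition, each cell number alone, another call rule and each library left out. On simulated data with 11709 genes, the comparison of antibody with none recovered 58% of genes changed 2-fold and 93% of those changed 4-fold, with 14 of 165 calls (8.48%) in genes that were not changed, and the interaction, with a change at 10000 cells alone, 5% and 53%. R 4.3.3 was used, and Python 3.11.15 with pandas 2.3.3, numpy 2.4.6 and matplotlib 3.10.9.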

Additional observations from a re-analysis of the deposited data

Results flagged for a closer look

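Among 279 groups of 6 libraries (each gene named by the rule and both library measures in each antibody group), 20 (7.17%) had a library far from the rest by Dixon's test, which chance gives in about 1 of 20 groups. Of these, 6 were replicate 2 of 100 cells with H3K27me3: Kmt2c (42.5 CPM), Tug1 (33.6) and Nanog (994.9) were lowest there and Sp5 (38.2), Uqcrb (283.3) and Cox7b (667.5) highest. Another 5 were the smallest library, replicate 2 of 1000 cells without antibody, where B230219D22Rik (57.7 CPM) and Snord52 (9.62) were highest and Gap43 (4.81), Rpn2 (182.8) and Gapdh (0) lowest. In replicate 1 of 10000 cells with H3K4me3, Rmrp (48.7 CPM) and Rpph1 (44.2) were highest. In replicate 2 of 10000 cells with H3K27me3, Bmp4 (45.6) and Egr1 (2.20) were highest. In replicate 1 of 100 cells with H3K27me3, H2-Eb1 (28.6) was highest and Etv4 (7.84) lowest. Zfp984 (77.6) was highest in replicate 2 of 100 cells with H3K4me3, and Ier2 (110.7) was lowest in replicate 2 of 100 cells without antibody. Thinned to equal depth, replicate 2 of 10000 cells without antibody detected 11510 genes, the most in its group.

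For 10 genes, Etv5 from a list written after values were seen and 9 named by the rule, the difference between antibody and none depended on the cell number, by the interaction in edgeR. Their adjusted p-values were 0.00865 for Nanog, 0.00999 for Rpl15, 0.0106 for Actb, 0.014 for Hsp90aa1, 0.0284 for Vbp1, 0.0338 for Etv5, 0.0354 for Snhg1, 0.0363 for Hprt, 0.0367 for Pou5f1 and 0.0419 for Ssr3. Over all genes 377 of 12665 (2.98%) were called, and that number was not steady when single libraries were left out.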

How the results depend on the processing

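The comparison of antibody with none called 4180 to 5095 genes when each library was left out, H3K4me3 against none 3478 to 4350, H3K27me3 against none 3357 to 4293, and the antibodies against each other 0 to 0. A lone library of a condition was then assumed to vary like the others. The interaction with cell number was less steady, with 9 genes without replicate 1 of 10000 cells without antibody and 931 without replicate 1 of 1000 cells without antibody, against 377. The difference in genes detected ranged from -7.33 to 421, and was 277 (p = 0.00889, exact permutation test) with at least 5 counts. Averaged over the cell numbers, Rn45s stayed higher with an antibody when each library was left out, by 5.54 to 8.68 points.

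DESeq2 called 730 genes for the interaction and edgeR without a filter 681. Thinned to the smallest library, which left 5190 genes to test and 5866 for the interaction, 1893 genes were called for antibody against none, 1489 for H3K4me3, 1435 for H3K27me3 and 185 for the interaction. The offset for GC content and length gave 2828, 2179, 2186 and 188. At 100 cells alone 875 of 12093 genes were called, and 1385 genes had an unadjusted p below 0.05 with a log2 fold change above 1. In the other alternatives the counts stayed within 1.5 times those given, with 2 exceptions. These were the interaction with single libraries left out, and the offset with the replicate block, given below. Apart from the thinning, the cause of these differences was not tested.

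Replicate numbers did not pair the libraries: among 36 pairs of conditions the deviations of equal numbers correlated by -0.0696 to 0.127, with 3 above 0.1. With the replicate block 4688 genes were called for antibody against none, 3889 for H3K4me3, 3855 for H3K27me3, 0 between the antibodies and 478 for the interaction. With the block and the offset together, the numbers were 2760, 2102, 2074, 0 and 219. The p of the Rn45s share was 0.00412 and that of the genes detected 0.207, by exact permutation within replicate numbers.

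Of 90 named genes, 79 had 1 direction under all alternatives. With the offset 14 kept the direction and lost the call. With the offset the log2 fold change turned for Nr0b1 (0.0086), Nodal (0.17), Cth (-0.049), Ero1l (-0.011), Ssr3 (-0.049), Ssr1 (-0.064), Cox7b (-0.13), Pou5f1 (0.25), Actb (0.060) and Gapdh (0.16). With the offset and the block it turned for Nr0b1 (0.029), Nodal (0.19), Ssr3 (-0.027), Ssr1 (-0.050), Cox7b (-0.11), Pou5f1 (0.26), Actb (0.081) and Gapdh (0.17). Thinning turned Nodal (0.0011). Malat1 was -0.76 with the offset (adjusted p = 4.47e-05, edgeR), against a value not called without it, 0.31 without the pair of small libraries, 0.42 at 10000 cells alone, and -0.19 to 0.10 with each library left out. Pou5f1 was 0.0078 and 0.10, and Actb 0.061 and 0.13, at 100 and 1000 cells alone.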
